A study of Mus musculus with 4 samples.

Results

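Transcripts of 10 transcription factors that set up and maintain type 1 innate lymphoid cells (ILC1s) and natural killer (NK) cells were followed in mouse ILC1 libraries with and without the Ncr1-iCre transgene. The factors, Tbx21, Eomes, Zfp683, Prdm1, Nfil3, Id2, Zeb2, Irf8, Ets1 and Tcf7, were chosen by gene symbol, and all 10 were found, each once, among the 40481 genes of the count table. The control libraries (n = 2, numbered 1 and 2) came from Inpp4b flox/flox mice, and those labelled knockout, called iCre-labelled below (n = 2, numbered 3 and 4), came from Ncr1-iCre Inpp4b flox/flox mice, so that all 4 carried the floxed alleles. Ncr1-iCre drives recombination in cells that express Ncr1, the gene of the NK receptor NKp46, and no library carried the transgene without floxed alleles, so effects of the transgene and of the deletion cannot be told apart. The design text gives murine CD49a+ ILC1s as the starting cells, and only control library 1 is labelled as liver. Neither age, nor sex, nor the number of animals behind a library was given.

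ILC1s and NK cells belong to the group 1 innate lymphocytes, which make interferon-gamma and kill target cells. T-bet, the product of Tbx21, is needed for ILC1s, whereas its paralog Eomes marks conventional NK cells and is low or absent in liver ILC1s. Hobit, encoded by Zfp683, and its relative Blimp-1, encoded by Prdm1, are zinc finger repressors linked to tissue residency. NFIL3, ID2, ETS1 and TCF-1, the product of Tcf7, act from the early innate lymphoid or NK progenitor on, while ZEB2 and IRF8 are known for later NK cell maturation and activation.

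The libraries held 42380840 to 54878210 counts, and every value of the 10 factors rests on at least 41 counts. Whether each library came from its own animal is not stated, and the p-values reflect only the spread between libraries, which may be technical. The targeted transcript, Inpp4b, counted over the whole gene, was at 78.7 and 107 CPM in the controls and 143 and 86.0 CPM in the iCre-labelled libraries, and the deleted exons were not given, so it does not check the genotype labels. Itga1, the gene of CD49a, stood at 218, 208, 179 and 206 CPM in libraries 1 to 4, where CPM are counts scaled to the library total, itself corrected with a TMM factor. The ILC1 chemokine receptor gene Cxcr6 stood at 2142 CPM or more in every library. Ncr1, which drives the iCre, was at 1672 and 1772 CPM in the controls and 1202 and 1077 CPM in libraries 3 and 4, a log2 fold change of -0.60 (SE 0.14) that edgeR did not call (adjusted p = 0.28) and DESeq2 called lower (adjusted p = 0.0149). Of 20 ILC1 genes edgeR called 0, and DESeq2 called 2 higher (Ifng and Gzmb) and 1 lower (Ncr1). Before adjustment edgeR gave 6 higher (Ifng, Gzmb, Rgs1, Xcl1, Ccl4 and Cd69) and 1 lower (Ncr1) at p under 0.05. Over all genes tested, 4.48% were higher and 5.17% lower at that level. Of all genes, edgeR called 0.155% and DESeq2 2.9% of those it tested. The conventional NK cell genes S1pr5 and Cma1 stood at no more than 2.0 CPM. Of the 16 such genes listed, others stood higher, such as Klra9 at 183, 131, 170 and 162 CPM in libraries 1 to 4. The 16 together summed to 467 and 461 CPM in the controls and 840 and 1381 CPM in the iCre-labelled libraries. Among markers of other innate lymphoid cells (ILC2s and ILC3s), Il17a, Il22 and Il23r had 0 counts throughout. The summed level of 21 monocyte, macrophage and dendritic cell markers was 942 and 1065 CPM in the controls and 2991 and 3650 CPM in the iCre-labelled libraries. Within it, Itgax gave 480 and 492 against 510 and 538 CPM. The summed level of 13 T cell markers was 2459 and 2428 CPM against 2959 and 4019 CPM. Its largest part was Cd3g, at 1469 and 1255 against 1623 and 1930 CPM. Within the same sum, Cd3e was at 26.5 and 15.1 against 152 and 371 CPM, and Trbc1 at 443 and 616 against 390 and 425 CPM.

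Promoter windows in RefSeq's table (build GRCm38.p6) covered 8 of the 10 genes, leaving out Zfp683 and Ets1. The 250 bases upstream of the start given by RefSeq are printed for the T-box pair, whose levels lay far apart. They are also printed for Id2, which had the highest level per kilobase of exon, and for Irf8, which had the smallest p. Capitals mark matches on either strand to the TATA box, searched as TATAAA, the CCAAT box, searched as these letters, and a core bound by ETS factors, searched as GGAAGT. The half-site of T-box factors, searched as TCACAC, was found in none of the members' windows. The same was true of the palindrome of NFIL3 and its relatives, searched as TTANNTAA. No motif searched is contained in another, and matches of different motifs could overlap.
Tbx21: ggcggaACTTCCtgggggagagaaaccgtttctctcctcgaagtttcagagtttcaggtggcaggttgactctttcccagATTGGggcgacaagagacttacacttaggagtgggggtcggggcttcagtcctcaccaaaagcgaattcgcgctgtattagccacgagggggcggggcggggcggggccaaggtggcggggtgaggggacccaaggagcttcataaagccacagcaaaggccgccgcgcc
Eomes: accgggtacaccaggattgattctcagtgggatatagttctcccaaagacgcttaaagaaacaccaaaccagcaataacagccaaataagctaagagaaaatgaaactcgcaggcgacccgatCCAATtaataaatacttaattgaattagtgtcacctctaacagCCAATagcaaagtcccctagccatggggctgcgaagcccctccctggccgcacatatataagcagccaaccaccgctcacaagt
Id2: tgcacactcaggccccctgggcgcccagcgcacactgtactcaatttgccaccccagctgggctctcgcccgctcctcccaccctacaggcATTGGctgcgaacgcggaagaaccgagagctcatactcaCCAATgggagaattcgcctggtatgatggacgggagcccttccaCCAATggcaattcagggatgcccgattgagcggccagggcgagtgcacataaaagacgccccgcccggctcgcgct
Irf8: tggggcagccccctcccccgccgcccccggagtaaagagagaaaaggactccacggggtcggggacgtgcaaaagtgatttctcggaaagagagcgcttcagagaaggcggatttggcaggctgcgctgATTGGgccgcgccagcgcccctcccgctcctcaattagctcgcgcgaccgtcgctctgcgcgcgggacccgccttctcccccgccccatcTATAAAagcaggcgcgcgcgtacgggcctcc
In mm10 terms, which share the GRCm38 sequence, these windows are chr11:97115332-97115581 on the minus strand for Tbx21 and chr9:118477939-118478188 on the plus strand for Eomes. The Irf8 window, the upstream one of 2 listed, is chr8:120736108-120736357 on the plus strand. The Id2 window is chr12:25096093-25096342 on the minus strand. It lies inside the span that GENCODE gives for Id2, 25093799 to 25097140, so it is not upstream of the start in that annotation. Tbx21 had 1 match to the CCAAT box and 1 to the ETS core, Eomes had 2 to the CCAAT box, Id2 had 3, and Irf8 had 1 beside 1 TATA box. Among all 32851 windows, 33.8% held the CCAAT box, 12.4% the TATA box, 19.7% the ETS core, 12.3% the T-box half-site and 5.43% the NFIL3 palindrome. CpG dinucleotides numbered 16 in the Tbx21 window, 8 in that of Eomes, 18 in that of Id2 and 29 in that of Irf8, against a median of 6. Methylation and factor binding were not measured, so these letters are a description only.

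None of the 10 factors passed the test between genotypes. Genes were tested with edgeR's quasi-likelihood test, two-sided, with Benjamini-Hochberg adjustment over 14863 genes and a threshold of 0.05. All 10 factors were among the genes tested, 0 were called in either direction, and 0.155% of all genes tested were called. Without adjustment, 1 factor (Irf8) was higher and 0 were lower with p under 0.05, as were 4.48% and 5.17% of all genes. The DESeq2 test called 0 of the 10 factors and 2.9% of the genes it tested. The groups did not overlap for 5 factors that were higher (Irf8, Prdm1, Id2, Zeb2 and Eomes) and 2 that were lower (Tbx21 and Ets1) in the iCre-labelled libraries. Among all genes 19.5% were higher and 20.8% lower without overlap, 40.2% together. The median log2 fold change, iCre-labelled over control, was 0.21 over the 10 factors and -0.01 over all genes tested. Without iCre-labelled library 3 these medians were 0.09 and -0.1.

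**Figure D1:**
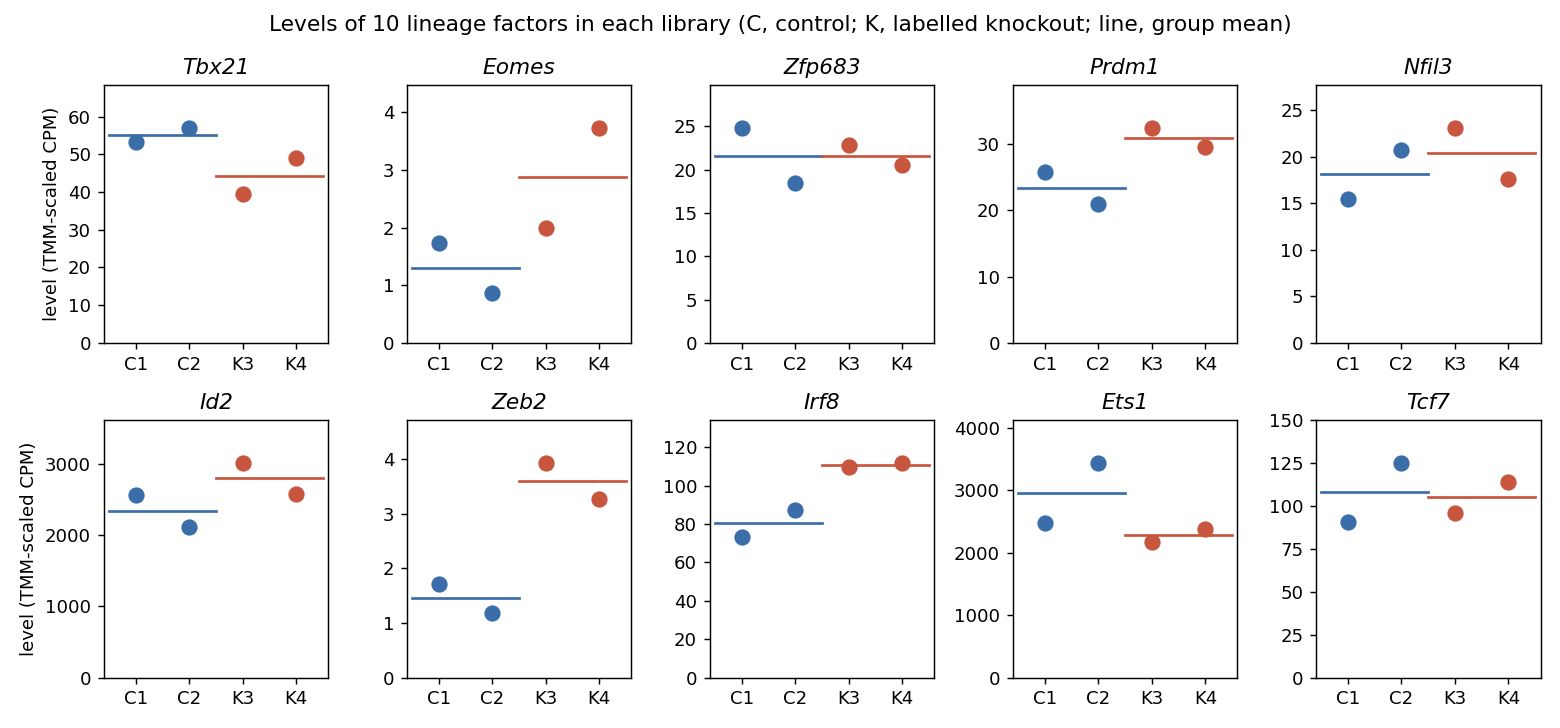
Level in TMM-scaled CPM (vertical axes, each from 0) of the 10 factors in control libraries 1 and 2 (blue) and iCre-labelled libraries 3 and 4 (red), with group means as lines. The groups overlap for Zfp683, Nfil3 and Tcf7 and do not overlap for the other 7 genes.

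**Figure D2:**
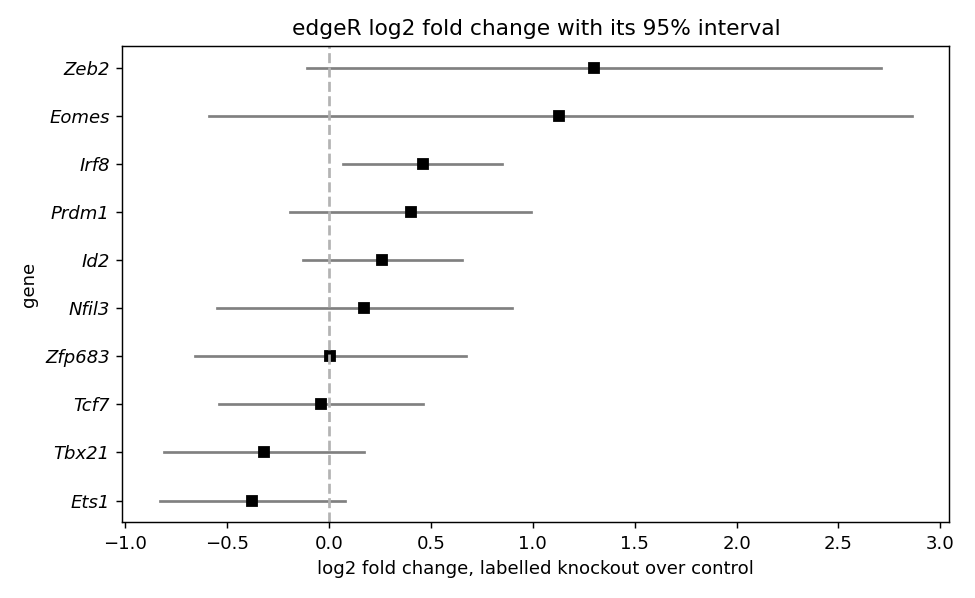
Log2 fold change of each factor (squares) with the 95% interval of the edgeR fit (lines, n = 2 libraries per group). The interval of Irf8 runs from 0.07 to 0.85, and those of the other 9 factors cross 0.

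Tbx21 carried nearly all T-box transcripts of the pair in every library. Tbx21 (ENSMUSG00000001444, mm10 chromosome 11, 97098071 to 97115331, minus strand) stood at 53.4 and 57.0 CPM in the controls and 39.4 and 49.0 CPM in the iCre-labelled libraries. The 2 control values lay above the other 2, with group means of 55.2 ± 2.57 and 44.2 ± 6.76 CPM (SD, n = 2 each). On the log2 scale the fold change was -0.32 (SE 0.20, 95% interval -0.81 to 0.17, edgeR adjusted p = 0.702). Eomes (ENSMUSG00000032446, chromosome 9, 118478212 to 118486132, plus strand) had only 101 and 41 counts in the controls and 86 and 193 counts in libraries 3 and 4. Scaled, these were 1.74 and 0.868 CPM against 2.0 and 3.73 CPM, so the highest control lay just under the lower of the iCre-labelled libraries. The edgeR fit gave 1.13 for the log2 fold change (SE 0.71, adjusted p = 0.703) with an interval from -0.59 to 2.86, and the value was 0.58 without iCre-labelled library 4 and 1.72 without control library 1. Per kilobase of exon, Eomes made up 1.92% and 0.903% of the summed T-box pair in the controls and 2.95% and 4.36% in libraries 3 and 4.

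The Eomes to Tbx21 ratio needs no scaling between libraries. Counts per exon length gave ratios of 0.0195 and 0.00911 in the controls and 0.0304 and 0.0456 in the iCre-labelled libraries, which do not overlap. On the log2 scale the means were -6.23 ± 0.78 and -4.75 ± 0.41 (SD, n = 2 each), a difference of 1.48 (exact two-sided permutation test, p = 0.333). That p is the smallest that the exact permutation of 2 libraries against 2 can give, so no ratio could pass the threshold by this test. Eomes is also made by memory CD8 T cells and conventional NK cells. Of 15 tested conventional NK cell genes edgeR called 1 higher (Klra7), and of 11 tested T cell genes 1 higher (Trac), with 6 of each list higher and 0 lower before adjustment. The groups did not overlap for 10 of the NK cell genes that were higher and 1 that was lower (Itga2), and for 9 and 1 (Trbc1) of the T cell genes. Over all genes tested, 19.5% were higher and 20.8% lower without overlap. At unadjusted p under 0.05 in edgeR the shares over all genes were 4.48% and 5.17%, and 0.155% were called. The annotated antisense gene Gm33460, not analysed here, shares 118 exon bases with Eomes. The T cell receptor gene Trac stood at 7.31 and 5.67 against 85.1 and 201 CPM, and Cd8a at 15.2 and 19.7 against 59.8 and 141 CPM, while Cd8b1 stood at no more than 1.61 CPM in any library. The 16 conventional NK cell genes summed to 467 and 461 against 840 and 1381 CPM. Within these sums the Ly49 receptor gene Klra7 gave 27.8 and 37.5 against 251 and 521 CPM. Its relative Klra1 gave 3.74 and 5.97 against 19.0 and 328 CPM. The part of such cells in the Eomes values was not tested, and fewer or more cells of a type cannot be told apart in bulk RNA from less or more RNA per cell.

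**Figure D3:**
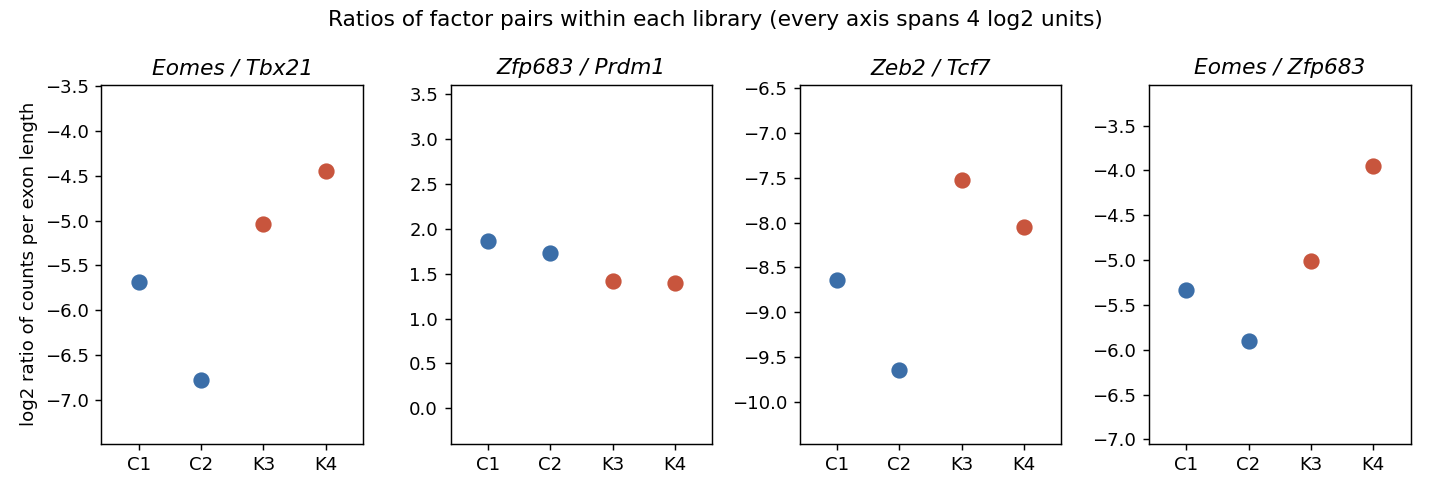
Log2 ratio of counts per exon length (vertical axes, each spanning 4 units) for 4 pairs of factors in each control library (blue, C1 and C2) and iCre-labelled library (red, K3 and K4). In each pair the 2 groups do not overlap, and the difference is 1.48 for Eomes over Tbx21 and -0.39 for Zfp683 over Prdm1. Each pair holds a factor whose groups already do not overlap alone, as was so for 40.2% of all genes tested.

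Per exon length, the Hobit gene stood above the Blimp-1 gene in all 4 libraries, although its CPM were lower in each. Zfp683 (ENSMUSG00000049410, chromosome 4, 134053838 to 134058996, plus strand) was at 24.8 and 18.4 CPM in the controls and 22.8 and 20.5 CPM in libraries 3 and 4. The iCre-labelled values lay between the control values, and the log2 fold change was 0.0021 (SE 0.28, 95% interval -0.66 to 0.67, edgeR adjusted p = 0.999). Its sign turned with the scaling. Prdm1 (ENSMUSG00000038151, chromosome 10, 44437177 to 44528501, minus strand) was at 25.8 and 21.0 CPM in the controls and 32.4 and 29.5 CPM in the iCre-labelled libraries, without overlap. Its log2 fold change was 0.40 (SE 0.24, 95% interval -0.19 to 0.99, edgeR adjusted p = 0.685). Per exon length, Zfp683 was 3.65 and 3.31 times Prdm1 in the controls and 2.67 and 2.64 times Prdm1 in libraries 3 and 4. The log2 ratios were 1.80 ± 0.10 and 1.41 ± 0.01 (SD, n = 2 each), a difference of -0.39 that was larger than the spread within either group (exact permutation p = 0.333, the smallest possible). This ratio varied least between replicates of the 4 computed. Eomes over Zfp683, the pair that separates the NK cell from the ILC1 factor, was 0.0248 and 0.0167 in the controls and 0.0311 and 0.0645 in libraries 3 and 4, a log2 difference of 1.14 (exact permutation p = 0.333), or 0.61 without iCre-labelled library 4.

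Per kilobase of exon, Id2 had the highest level of the 10 factors, while in CPM Ets1 exceeded Id2 in control library 2. ID2 lacks a DNA-binding region of its own and holds E proteins away from DNA, which keeps lymphoid progenitors from the B and T cell paths. Id2 (ENSMUSG00000020644, chromosome 12, 25093799 to 25097140, minus strand) stood at 2562 and 2117 CPM in the controls and 3021 and 2580 CPM in the iCre-labelled libraries. The groups did not overlap, but control library 1 and iCre-labelled library 4 were nearly level, and the log2 fold change was 0.26 (SE 0.16, 95% interval -0.13 to 0.65, edgeR adjusted p = 0.699). Among the 4 ID genes, Id2 made up 97.8% to 99.0% of the summed level per exon length in every library. Id3, whose product is known for T cell development, gave 0.99% to 2.02%. Id1 had 0 counts in control library 1, and Id4 had 0 in iCre-labelled library 3. The E protein genes were far below Id2 per kilobase: Tcf3 (E2A) at 1.82 to 3.28, Tcf12 (HEB) at 2.12 to 3.29 and Tcf4 (E2-2) at 0.632 to 1.06 CPM per kilobase, against 868 to 1239 for Id2. Tcf12 was at 51.1 and 46.9 against 32.9 and 36.4 CPM (adjusted p = 0.497 in edgeR for a log2 fold change of -0.50 with SE 0.20), and 0 of the 3 E protein genes were called.

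Nfil3, which acts upstream of Id2 and Eomes in NK cell progenitors, showed no separation by genotype. Nfil3 (ENSMUSG00000056749, chromosome 13, 52967209 to 52981073, minus strand) was at 15.5 and 20.7 CPM in the controls and 23.1 and 17.6 CPM in libraries 3 and 4. The groups overlapped, and the log2 fold change was 0.17 (SE 0.30, 95% interval -0.55 to 0.90, edgeR adjusted p = 0.947). Its sign turned when control library 1 or iCre-labelled library 3 was left out. The related activators Dbp, Tef and Hlf, which bind the same DNA elements, were lower per exon length than Nfil3 in each library. Nfil3 made up 72.9% and 82.3% of the 4 genes in the controls and 82.5% and 79.9% in the iCre-labelled libraries.

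Irf8 had the smallest p of the 10 factors. Irf8 (ENSMUSG00000041515, chromosome 8, 120736358 to 120756694, plus strand) stood at 73.5 and 87.5 CPM in the controls and 110 and 112 CPM in the iCre-labelled libraries. Libraries 3 and 4 were nearly equal and both above the controls, with means of 111 ± 1.71 and 80.5 ± 9.89 CPM (SD, n = 2 each). The fold change was 1.38 (95% interval 1.05 to 1.81, unadjusted p = 0.0286 from edgeR), but the adjusted p over all genes was 0.45. The 5 other genes of at least 10 CPM with the profile nearest to Irf8 were Cox5b, Rpl23a, Rpl19, Tmem242 and Vrk1, out of 7316 compared. Their mean-centred log2 CPM differed from that of Irf8 by a root mean square of 0.018 to 0.026 over the 4 libraries, and Rpl19, for example, was at 464, 545, 666 and 683 CPM. With 4 libraries many genes share such a profile, and no tie between them is implied.

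IRF8 is also a main factor of dendritic cells and monocytes, and their genes were higher in the same libraries. Of 19 tested markers of monocytes, macrophages and dendritic cells, edgeR called 8 higher and 0 lower, beside 0.155% of all genes in either direction. Csf1r stood at 8.95 and 14.9 against 77.7 and 74.9 CPM (adjusted p = 0.0489 in edgeR for a log2 fold change of 2.68 with SE 0.29), and the lysozyme gene Lyz2 at 43.1 and 71.5 against 626 and 583 CPM. The other 6 called were the antigen presentation genes H2-Aa, H2-Ab1, H2-Eb1 and Cd74, the Fc receptor gene Fcgr4 and the cathepsin gene Ctss, with log2 fold changes from 2.29 to 3.10. The markers of dendritic cells that cross-present antigen were near 0 in part. Clec9a was at no more than 0.0423 CPM and Flt3 at no more than 0.224 CPM in any library, while Xcr1 was at 22.8, 19.7, 24.9 and 23.4 CPM. Siglech, a plasmacytoid dendritic cell gene, was at 0.966 and 2.05 against 1.72 and 7.03 CPM. Irf4, the closest relative of Irf8 among the genes listed and a factor of dendritic cells and activated lymphocytes, was at 0.569 and 0.233 against 3.70 and 2.76 CPM. The edgeR fit put the log2 fold change at 3.0 (SE 0.79, adjusted p = 0.329), and DESeq2 called Irf4 (adjusted p = 0.0292). The part of myeloid cells in the Irf8 and Irf4 values was not tested.

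Zeb2 had the lowest level per kilobase of exon and the largest fitted fold change of the 10, whereas in CPM its group means lay above those of Eomes. ZEB2 works with T-bet in the terminal maturation of NK cells and is also expressed in myeloid cells. Zeb2 (ENSMUSG00000026872, chromosome 2, 44983632 to 45117395, minus strand) had 100 and 56 counts in the controls and 169 counts in each iCre-labelled library. These were 1.72 and 1.19 against 3.93 and 3.27 CPM, without overlap. The log2 fold change was 1.30 (SE 0.58, 95% interval -0.11 to 2.71, edgeR adjusted p = 0.548) and stayed positive, from 1.06 to 1.60, with any 1 library left out. Its paralog Zeb1 was at 35.1 and 38.7 against 42.5 and 33.8 CPM (adjusted p = 0.99 in edgeR for a log2 fold change of 0.05 with SE 0.22). Zeb2 thus gave 2.46% and 1.55% of the summed ZEB level per exon length in the controls and 4.55% and 4.74% in libraries 3 and 4. The antisense gene Zeb2os shares 653 exon bases with Zeb2 and had 0, 0, 0 and 5 counts in libraries 1 to 4. The macrophage gene Adgre1, at 2.57 and 2.77 against 18.8 and 16.6 CPM, moved with Zeb2 between the libraries, and its cells' part in the Zeb2 values was not tested. Set against Tcf7, a factor of less mature cells, Zeb2 gave ratios per exon length of 0.00251 and 0.00125 in the controls and 0.0054 and 0.00377 in libraries 3 and 4, a log2 difference of 1.35 (exact permutation p = 0.333).

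Ets1, an activator that NK cell development needs, had the second highest level per kilobase of exon. Ets1 (ENSMUSG00000032035, chromosome 9, 32636221 to 32757820, plus strand) stood at 2477 and 3439 CPM in the controls and 2175 and 2383 CPM in the iCre-labelled libraries. The values did not overlap, but control library 2 stood apart, and the log2 fold change of -0.38 (SE 0.19, 95% interval -0.83 to 0.08, edgeR adjusted p = 0.597) was -0.12 without it. The related ETS gene Fli1 was at 373 and 338 against 415 and 306 CPM (adjusted p = 0.996 in edgeR for a log2 fold change of 0.02 with SE 0.18). Per exon length, Ets1 gave 73.1% and 80.6% of Ets1, Ets2 and Fli1 together in the controls and 68.3% and 75.9% in libraries 3 and 4, which overlap. The 5 profiles nearest to Ets1 were those of Trbc1, Ccdc137, Map3k3, Set and Ppm1b, within a root mean square of 0.0021 to 0.027 on the log2 scale. Trbc1, a T cell receptor beta constant segment, was at 443, 616, 390 and 425 CPM.

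Tcf7, whose product TCF-1 is a factor of early innate lymphoid progenitors and of stem-like lymphocytes, did not separate the genotypes. Tcf7 (ENSMUSG00000000782, chromosome 11, 52252371 to 52283014, minus strand) was at 90.3 and 125 CPM in the controls and 95.8 and 114 CPM in the iCre-labelled libraries. Libraries 3 and 4 lay between the controls, and the log2 fold change was -0.04 (SE 0.21, 95% interval -0.54 to 0.46, edgeR adjusted p = 0.99), with the sign turning when control library 2 or iCre-labelled library 3 was left out. Within the TCF/LEF genes, Tcf7 gave 85.4% to 91.3% of the summed level per exon length. Lef1 was at 34.1 and 26.1 against 27.1 and 29.0 CPM. Tcf7l2 was at 6.33 and 13.3 against 26.8 and 18.9 CPM (adjusted p = 0.44 in edgeR for a log2 fold change of 1.22 with SE 0.43). The long noncoding gene Gm26551, on the same strand within the Tcf7 locus, had 98 and 147 counts in the controls and 32 and 6 counts in libraries 3 and 4, and it shares 0 exon bases with Tcf7. The antisense gene A630014C17Rik had 15 and 9 counts against 0 and 0. Both were chosen after their values were seen, beside 4119 to 5897 counts of Tcf7 itself.

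Per kilobase of exon the 10 factors ranged from 1054 CPM per kilobase for Id2 to 0.127 for Zeb2 (means over 4 libraries). Id2 stood at percentile 99.7 and Ets1 at 98.7 of the 14853 tested genes with a length, Tcf7 at 89.9 and Tbx21 at 82.2. The mean levels were 309 for Ets1, 40.5 for Tcf7, 20.0 for Tbx21, 14.7 for Zfp683, 13.6 for Irf8, 9.49 for Nfil3 and 4.87 for Prdm1. Eomes stood at 0.502 and percentile 19.7, and Zeb2 at percentile 6.13. The ranges over libraries overlapped between the neighbours Tbx21 and Zfp683, Zfp683 and Irf8, and Irf8 and Nfil3, and they did not overlap between the other neighbours in this order. With the longest transcript as length, Irf8 moved to rank 4 at 27.6 CPM per kilobase, ahead of Tbx21 and Zfp683, and the other 7 kept their rank.

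**Figure D4:**
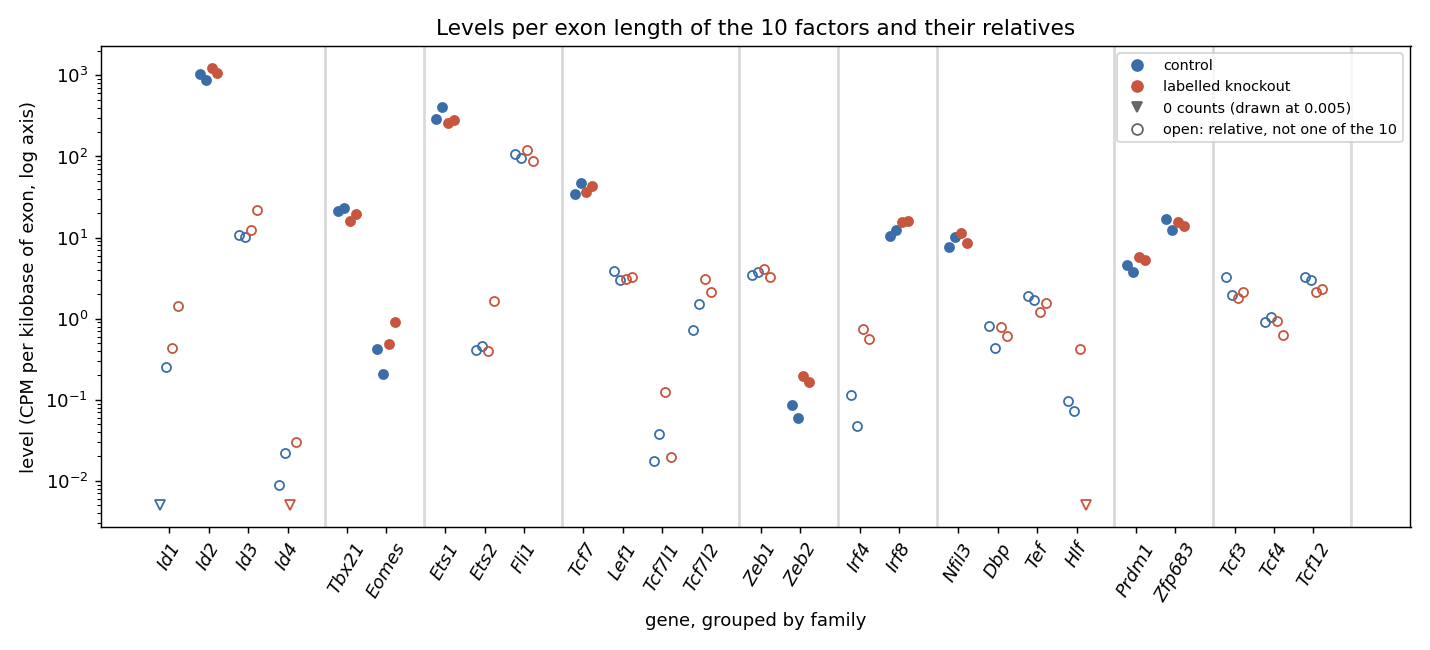
Level in CPM per kilobase of exon (log axis) of the 10 factors (filled) and their relatives (open) in the control libraries (blue) and the iCre-labelled libraries (red), with triangles for 0 counts. Id2 exceeds Id3 (10.2 to 21.9) in every library, and Tbx21 (15.8 to 22.9) exceeds Eomes (0.209 to 0.898).

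Genes around the 10 factors gave few calls, where edgeR called 0.155% of all genes and DESeq2 2.9% of those it tested. Unadjusted, edgeR put 4.48% of all genes higher and 5.17% lower at p under 0.05. Of 12 tested paralogs and relatives, edgeR called 0, with 2 higher (Irf4 and Tcf7l2) and 0 lower with p under 0.05 before adjustment, while DESeq2 called Irf4. Their median log2 fold change was 0.74, beside -0.01 over all genes tested. The list includes genes of few counts, such as Tbr1 (3 to 36) and Id1 (0 to 87). Among better counted relatives, Id3 and Tcf7l2 were at 0.70 and 1.22, and Zeb1 and Fli1 at 0.05 and 0.02. Lef1 and Tef were at -0.1 and -0.37. Of 24 other tested factors of innate lymphoid development, edgeR called 0, with 1 higher (Klf2) and 2 lower (Hhex and Gfi1) unadjusted, and the median was 0.01. Hhex, a homeobox gene, was at 115 and 169 CPM in the controls and 48.3 and 68.3 CPM in the iCre-labelled libraries (edgeR adjusted p = 0.245 for a log2 fold change of -1.28 with SE 0.26, DESeq2 adjusted p = 0.000397). Gfi1, a zinc finger repressor gene, was at 9.59 and 10.2 against 2.84 and 3.42 CPM (adjusted p = 0.286 in edgeR for a log2 fold change of -1.66 with SE 0.38, DESeq2 adjusted p = 0.014). Both were thus called lower by DESeq2 and not by edgeR. Batf, a factor of activated lymphocytes, was at 54.8 and 63.4 against 68.0 and 90.7 CPM (adjusted p = 0.586 in edgeR). Gata3, Tox, Runx3 and Ikzf3 had log2 fold changes of -0.21, -0.32, -0.02 and 0.01, with edgeR adjusted p-values of 0.624 or more.

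Known targets of T-bet or Eomes did not pass edgeR's test either. Of 10 such genes, all tested, 0 were called, and the median log2 fold change was 0.26. Before adjustment 3 were higher (Ifng, Gzmb and Prf1) and 0 lower with p under 0.05 in edgeR, beside 4.48% and 5.17% of all genes. Prf1, the perforin gene, was at 398 and 465 against 512 and 631 CPM (adjusted p = 0.51 in edgeR for a log2 fold change of 0.40 with SE 0.16). Il2rb, the shared interleukin receptor chain that both T-box factors induce, was at 3053 and 3603 against 2971 and 3648 CPM. Ccl5 and Cxcr3 had log2 fold changes of 0.11 and 0.12. DESeq2 called 2 of the 10 higher, Ifng (adjusted p = 0.00776) and Gzmb (adjusted p = 0.00407). Among the 15 tested conventional NK cell genes, Klra7 was called higher by edgeR (log2 fold change 3.56, SE 0.38, adjusted p = 0.0489), while S1pr5, which depends on T-bet and ZEB2, was at 0.793 and 0.169 against 2.0 and 0.329 CPM.

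**Figure D5:**
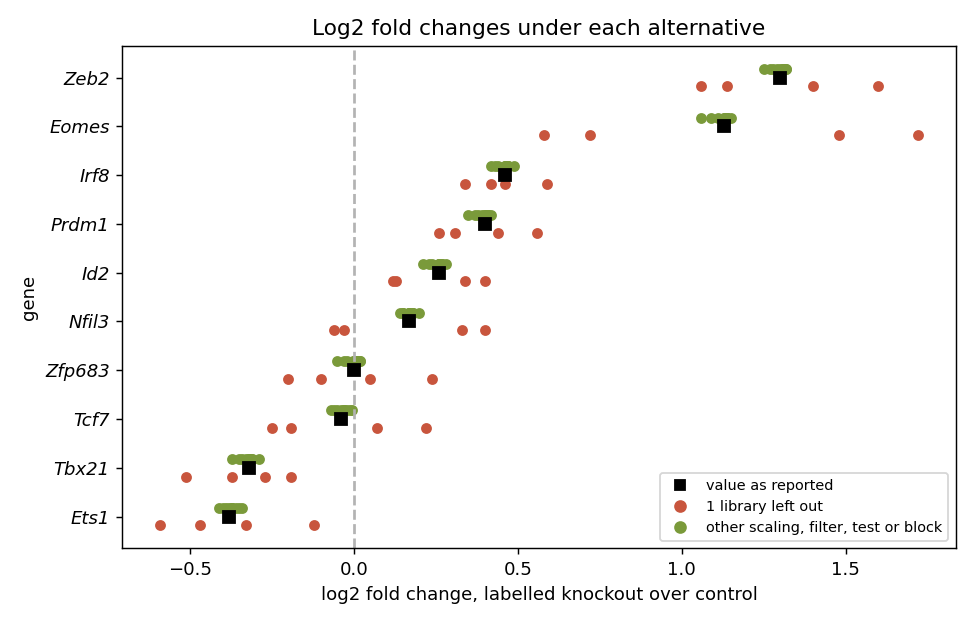
Log2 fold change of each factor as reported (squares), with 1 library left out (red) and under another scaling, filter, test or a replicate block (green). For each factor the green points span less than the red ones, and Zeb2 stayed between 1.06 and 1.60.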

How the data were processed

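Low-input SMARTer libraries of ILC1 RNA were sequenced on a NovaSeq (4 libraries), as the labels' protocols say. The values are the raw counts per gene that the authors deposited in a single table. The submitters' processing notes name bcl2fastq, STAR, Subread, featureCounts and DESeq2 with mm10. What each was used for, the annotation counted and the strand setting are not given in the sources used here, so reads of overlapping or antisense genes cannot be told apart. Of 40757 lines, 276 repeated ones with identical counts were dropped. Replicates differed beyond sampling noise (chi-square per degree of freedom 90.86 and 83.74) and were kept apart.

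After filterByExpr and TMM scaling, edgeR 4.0.16 (R 4.3.3) fitted genotype as the only term with its robust quasi-likelihood method. SE and 95% intervals come from that fit. The procedure was also run on simulated counts, and the outcome is not reported here. Exon lengths and positions come from GENCODE M21 (GRCm38, the mm10 sequence), matched by Ensembl ID for 40254 genes. Level ratios were compared by exact two-sided permutation. The alternatives were DESeq2 1.42.0, limma-voom (limma 3.58.1), other scaling factors, other filters, non-robust estimation, leaving out each library and, added later, a replicate block.

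The 10 factors and the 12 gene lists were chosen with earlier results of these data known. The rule for named genes took the factors, every called gene of a list, up to 4 genes of smallest p per list, not all of which are printed, and, as the nearest profiles, 5 genes for the factor of smallest p in each direction; other genes were chosen after their values were seen. Some genes of the lists are not reported here. No set test was run.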

Additional observations from a re-analysis of the deposited data

How the results depend on the processing

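None of the 10 factors was called in either direction under any scaling, filter, test or left-out library that was run, with edgeR, DESeq2 or limma-voom. A fit without 1 library assumes that the lone library of its group varies like the others. Their median log2 fold change of 0.21 ranged from 0.09 (without iCre-labelled library 3) to 0.33 (without iCre-labelled library 4) with 1 library left out. The median over all genes was -0.1 and -0.07 in these 2 fits. The differences in log2 ratio kept their sign with any 1 library left out, from 0.93 to 2.03 for Eomes over Tbx21, -0.46 to -0.32 for Zfp683 over Prdm1, 0.85 to 1.85 for Zeb2 over Tcf7 and 0.61 to 1.66 for Eomes over Zfp683. The sign turned for 3 factors near 0. Zfp683 was at -0.05 with library totals alone, -0.02 with no filter, -0.03 with at least 50 counts in 2 libraries and -0.0026 with limma-voom, and ranged from -0.20 to 0.24 with 1 library left out. Nfil3 ranged from -0.06 to 0.40 and Tcf7 from -0.25 to 0.22 in the same way. The order of levels changed for 3 factors with the longest transcript as length. Over all genes, edgeR called 21 higher and 2 lower. The counts were 299 and 264 with no filter, 40 and 9 with at least 50 counts in 2 libraries, 235 and 188 with DESeq2, and 6 lower with library totals alone. With 1 library left out they ranged from 0 to 18 higher and 0 to 2 lower, with 1 higher without control library 1, 1 without control library 2 and 0 without iCre-labelled library 4; the cause was not tested. Eomes and Zeb2 rest on 41 to 193 counts, the fewest of the 10 factors. The sample titles number the controls 1 and 2 and the knockouts 3 and 4, while the headers of the count table number both groups 1 and 2. A replicate block on the header numbers, chosen after seeing the data, called 0 of the 10 factors, with a median log2 fold change of 0.22. Over all genes it called 0 higher and 0 lower, with 857 and 852 at unadjusted p under 0.05, and left 1 residual degree of freedom. Deviations of same-numbered libraries correlated at 0.0709 over genes, so a pairing was not established.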
